A study of Homo sapiens with 12 samples.

Results

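Levels of MGP and of 9 genes of the bone morphogenetic protein (BMP) pathway were followed in prostate cells given extra ERG or an shRNA against ERG. The 10 genes were MGP, ID1, ID2, ID3, ID4, SMAD6, SMAD7, BMP2, BMP4 and BMPR2. They were taken by gene symbol and chosen on differences already seen on these arrays between GFP-ERG and GFP and between ERG shRNA and scramble, so those differences are given for the members as a description, with no support drawn from them. All 10 were measured in both data tables, among 16591 genes in RWPE1 and 16922 in VCaP, through 10 probes in RWPE1 and 12 in VCaP, where ID1 and BMP4 had a second probe each.

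RWPE1 cells are prostate epithelial cells that were immortalised and are not cancerous. They were transfected with a construct for GFP or with one for GFP fused to ERG, and RNA was taken at 48 h or 72 h. VCaP cells come from a prostate cancer with a TMPRSS2-ERG fusion gene, and they received a lentiviral scramble shRNA or a lentiviral ERG shRNA, followed in both groups by selection with puromycin. Each of the 6 groups had 2 arrays, 12 in all. The labels describe duplicate transfections but not what separates the arrays of a group, so p-values measure only the spread between these arrays, which may be technical. The promoter of the GFP-ERG construct, the share of RWPE1 cells that took it up and the number of shRNA sequences were not given in the sources used here.

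BMPs are secreted ligands that bring together type I receptors and a type II receptor such as BMPR2. The type I receptors phosphorylate SMAD1, SMAD5 and SMAD9, which enter the nucleus with SMAD4 and switch on targets that include the ID genes. ID proteins lack a DNA-binding region and hold basic helix-loop-helix factors away from DNA. SMAD6 and SMAD7 are inhibitory SMADs, induced by the signal that they then dampen. MGP, matrix Gla protein, is a secreted protein that binds calcium through carboxylated glutamates, holds back calcification and can bind BMP2 and BMP4. ERG belongs to the ETS transcription factors, which recognise DNA around the letters GGAA.

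ERG itself was read first. In RWPE1, 1 of the 2 ERG probes read 6.30 and 6.43 (log2 signal) on the GFP arrays at 48 h, against 7.33 and 7.29 on the GFP-ERG arrays. At 72 h it read 6.36 and 6.25 against 6.93 and 6.94. The other ERG probe stayed between 6.83 and 7.005 on all 8 arrays. In VCaP the brightest ERG probe read 8.35 and 8.33 with scramble and 8.71 and 8.77 on the arrays labelled ERG shRNA, and the other 2 probes stayed between 7.50 and 7.66. The brightest probe was thus higher by 0.40 on the arrays labelled ERG shRNA (limma adjusted p = 0.0396 in a fit of all probes). The other 2 lay below the median of 7.75, near the bottom of the scale, where little change can show. The ERG probes therefore do not show less ERG mRNA in the arrays labelled ERG shRNA, and they cannot check ERG protein. Every direction given for VCaP rests on those labels, and "with ERG shRNA" means the arrays labelled so. All 4 basal markers measured in RWPE1 (KRT5, KRT14, LAMB3 and ITGB4) lay above the median of its probes. Of the 4 luminal markers measured there, 2 did so as well (KRT8 and KRT18). In VCaP all 5 luminal markers measured (KLK2, KLK3, TMPRSS2, KRT8 and KRT18) lay above the median, and 0 of the 4 basal markers did. Within a pair of arrays, more than 2-fold differences were seen for this number of genes: 0 or 1 in each RWPE1 group, 4 in scramble and 115 in ERG shRNA. KLK3 was the 1 luminal marker called in VCaP, lower with ERG shRNA by -0.69 (limma adjusted p = 0.0448).

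Upstream sequences are shown, as context for an ETS factor, for the members with both GFP-ERG arrays above both GFP arrays at 48 h and again at 72 h. These were MGP, ID1, ID3 and SMAD6, and a window was at hand for the last 3. Of the 10 members, 8 matched a RefSeq promoter table on GRCh38.p14. The 250 bases before the annotated start follow for ID1 at chr20:31605039-31605288 on the plus strand, for ID3 at chr1:23559502-23559751 on the minus strand and for SMAD6 at chr15:66701986-66702235 on the plus strand. Each is written 5′ to 3′ along the gene, and capitals mark GGAA on either strand (printed TTCC on the other strand) or the SMAD-binding palindrome GTCTAGAC.
ID1: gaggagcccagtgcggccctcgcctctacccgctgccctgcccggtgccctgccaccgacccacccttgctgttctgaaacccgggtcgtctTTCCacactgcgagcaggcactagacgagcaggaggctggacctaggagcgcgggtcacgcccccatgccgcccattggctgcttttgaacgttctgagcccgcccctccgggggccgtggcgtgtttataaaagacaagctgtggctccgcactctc
ID3: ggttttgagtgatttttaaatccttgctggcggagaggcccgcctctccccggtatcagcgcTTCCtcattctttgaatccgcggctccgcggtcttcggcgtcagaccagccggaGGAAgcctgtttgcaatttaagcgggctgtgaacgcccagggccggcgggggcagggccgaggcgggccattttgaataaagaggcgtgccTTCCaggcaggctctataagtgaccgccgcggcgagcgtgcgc
SMAD6: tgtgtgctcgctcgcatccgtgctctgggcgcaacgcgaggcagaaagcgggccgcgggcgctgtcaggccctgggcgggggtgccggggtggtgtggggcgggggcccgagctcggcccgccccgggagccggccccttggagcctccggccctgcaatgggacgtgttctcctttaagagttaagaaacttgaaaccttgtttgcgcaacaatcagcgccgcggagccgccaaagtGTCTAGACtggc
The ID3 window held 3 matches to GGAA, the ID1 window 1 and the SMAD6 window 0. Across all 35116 windows of this length, 92.7% held at least 1 such match, so its presence is ordinary. A longer ETS string, CCGGAA, and another SMAD string, GGCGCC, were also searched, and each had 0 matches in the ID1, ID3 and SMAD6 windows. Among the windows of other members, CCGGAA was found in a SMAD7 and a BMP4 window. GGCGCC was found in a BMP4 window and in that of BMPR2. Of all windows, 14.5% held CCGGAA and 16.4% held GGCGCC. The SMAD6 window held GTCTAGAC, beginning 12 bases before the start, a string found in 0.182% of windows and in no other member window. It does not overlap a GGAA match, and these matches describe letters and not bound sites.

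MGP was the member that differed most in both cell lines. In RWPE1 its log2 signal was 6.66 and 6.54 on the GFP arrays at 48 h and 7.29 and 7.20 on the GFP-ERG arrays. At 72 h the GFP arrays read 6.41 and 6.42 and the GFP-ERG arrays 7.75 and 7.44. Both GFP-ERG arrays lay above both GFP arrays at each time, and the GFP levels lay below 7.24, the median of all probes. The difference between GFP-ERG and GFP was 0.64 log2 units (SE 0.08), or 1.56-fold, at 48 h and 1.17 (SE 0.08), or 2.25-fold, at 72 h. Among 16591 genes ordered from the highest fold change, MGP stood at place 72 at 48 h and at place 8 at 72 h. Signals this dim are compressed, and the fold on this scale can be smaller than that in RNA.

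In VCaP, MGP read 10.22 and 10.29 with scramble and 8.08 and 7.66 with ERG shRNA. The ERG shRNA arrays came down to the table's median of 7.75 and differed from each other more than the scramble arrays did. The difference was -2.38 log2 units (SE 0.16), so that MGP was 5.22-fold lower, at place 2 among 16922 genes ordered from the lowest. Leaving out single arrays moved it between -2.59 and -2.18. MGP was thus higher with GFP-ERG in RWPE1 and lower on the VCaP arrays labelled ERG shRNA, whose brightest ERG probe was higher. The lines were measured on separate array designs normalized separately.

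**Figure D1:**
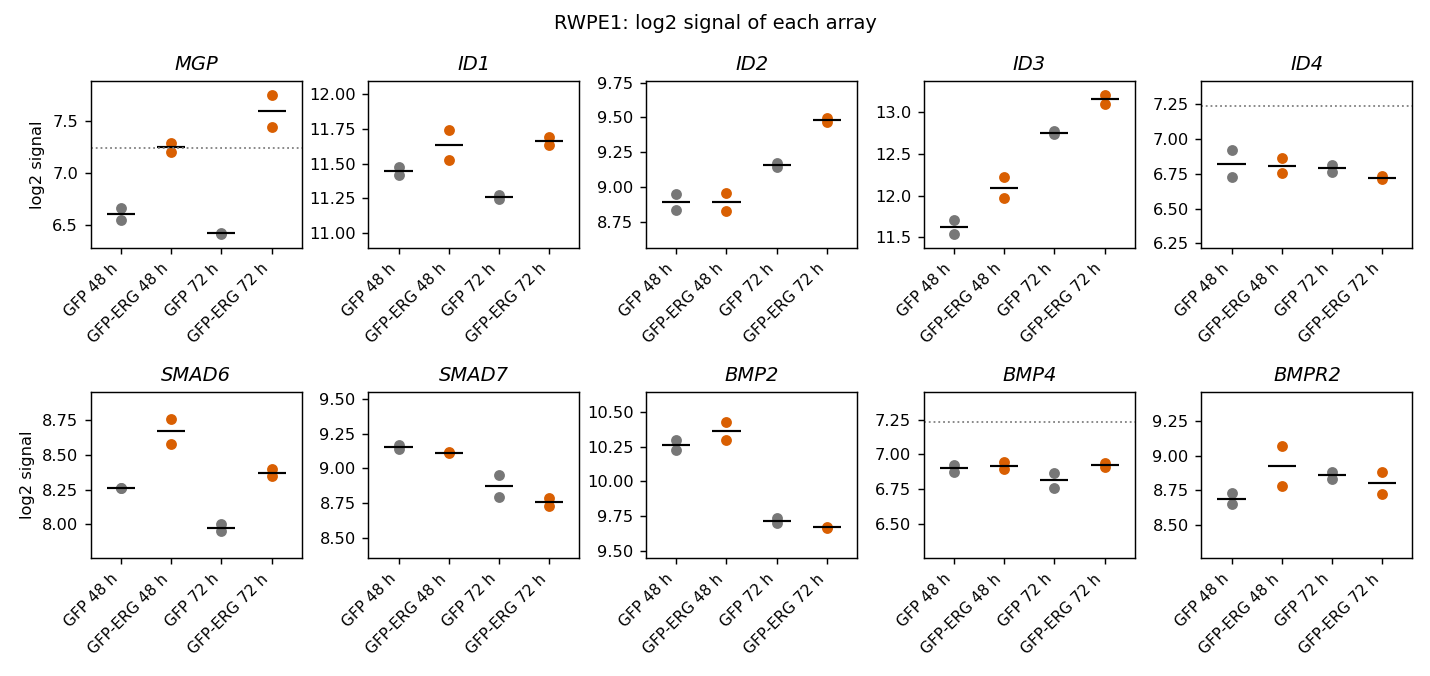
Log2 signal of each member on every RWPE1 array (points; grey for GFP, orange for GFP-ERG) with the group mean (bar), by group on the horizontal axis; each panel has its own vertical scale, and the dotted line marks the median of all probes where it falls in the panel. The MGP arrays with GFP-ERG lie at 7.20 to 7.75 and those with GFP at 6.41 to 6.66, and ID3 separates by time as well as by construct.

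Of the ID genes, ID3 and ID1 lay higher with GFP-ERG at both times and lower with ERG shRNA, and ID3 had the wider gap in VCaP. The RWPE1 signal of ID3 was 11.54 and 11.70 with GFP and 11.97 and 12.22 with GFP-ERG at 48 h. At 72 h the values were 12.77 and 12.74 against 13.10 and 13.20. The groups did not overlap at either time, and the differences were 0.47 (SE 0.08), or 1.39-fold, and 0.40 (SE 0.08), or 1.32-fold. In VCaP, ID3 read 9.19 and 9.20 with scramble and 7.99 and 8.02 with ERG shRNA, a difference of -1.19 (SE 0.03), or 2.28-fold lower. The spread within each VCaP pair was small beside that gap, and ID3 stood at place 193 of the 16922 genes counted from the lowest.

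ID1, a close relative of ID3, read 11.42 and 11.48 with GFP and 11.53 and 11.74 with GFP-ERG at 48 h, a difference of 0.19 (SE 0.07). At 72 h it read 11.28 and 11.25 against 11.63 and 11.69, a difference of 0.40 (SE 0.07), or 1.32-fold. The groups did not overlap at either time, and at 48 h the GFP-ERG arrays spread more widely. In VCaP the brighter ID1 probe read 7.87 and 7.79 with scramble and 7.62 and 7.61 with ERG shRNA, a difference of -0.22 (SE 0.04) close to the bottom of the scale. The other ID1 probe read 7.53 to 7.55 on all 4 arrays and showed no such gap.

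ID2 had overlapping groups at 48 h and separate ones at 72 h. At 48 h it read 8.84 and 8.95 with GFP and 8.83 and 8.95 with GFP-ERG, a difference of 0.00 (SE 0.07). At 72 h it read 9.17 and 9.15 against 9.47 and 9.49, a difference of 0.32 (SE 0.07), or 1.25-fold. In VCaP the ID2 arrays overlapped, at 9.44 and 9.14 with scramble and 9.28 and 8.88 with ERG shRNA. ID4 lay below the RWPE1 median on all 8 arrays, between 6.71 and 6.92, and between 7.71 and 7.94 in VCaP. The ID4 difference was -0.02 (95% interval -0.17 to 0.13) at 48 h, -0.07 (95% interval -0.22 to 0.08) at 72 h and 0.15 (95% interval -0.03 to 0.32) in VCaP.

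Of the inhibitory SMADs, SMAD6 lay higher with GFP-ERG at 48 h and 72 h, and SMAD7 did not. SMAD6 read 8.26 and 8.27 with GFP and 8.58 and 8.76 with GFP-ERG at 48 h. At 72 h it read 7.95 and 8.002 against 8.35 and 8.40. The groups did not overlap, and the differences were 0.41 (SE 0.07), or 1.33-fold, and 0.39 (SE 0.07), or 1.31-fold. SMAD7 read 9.14 and 9.17 with GFP and 9.12 and 9.11 with GFP-ERG at 48 h. At 72 h it read 8.80 and 8.95 against 8.73 and 8.79, slightly lower with GFP-ERG at both times. In VCaP both genes lay near the median, SMAD6 at 7.81 to 7.95 and SMAD7 at 7.73 to 7.84, and the SMAD6 groups overlapped.

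The ligands BMP2 and BMP4 differed by -0.05 to 0.11 log2 units between GFP-ERG and GFP. BMP2 read 10.30 and 10.23 with GFP and 10.30 and 10.42 with GFP-ERG at 48 h. At 72 h the values were 9.70 and 9.74 against 9.67 and 9.67. BMP4 stayed between 6.76 and 6.94 on the RWPE1 arrays, below the median. In VCaP, BMP2 lay at 7.84 to 7.94 and the brighter BMP4 probe at 7.64 to 7.73, with overlapping groups. BMPR2, the type II receptor, read 8.73 and 8.65 with GFP and 9.07 and 8.78 with GFP-ERG at 48 h, a difference of 0.24 (SE 0.08) with no overlap. At 72 h its groups overlapped. In VCaP it went the other way from MGP, at 9.42 and 9.25 with scramble and 9.81 and 10.09 with ERG shRNA, a difference of 0.62 (SE 0.13).

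**Figure D2:**
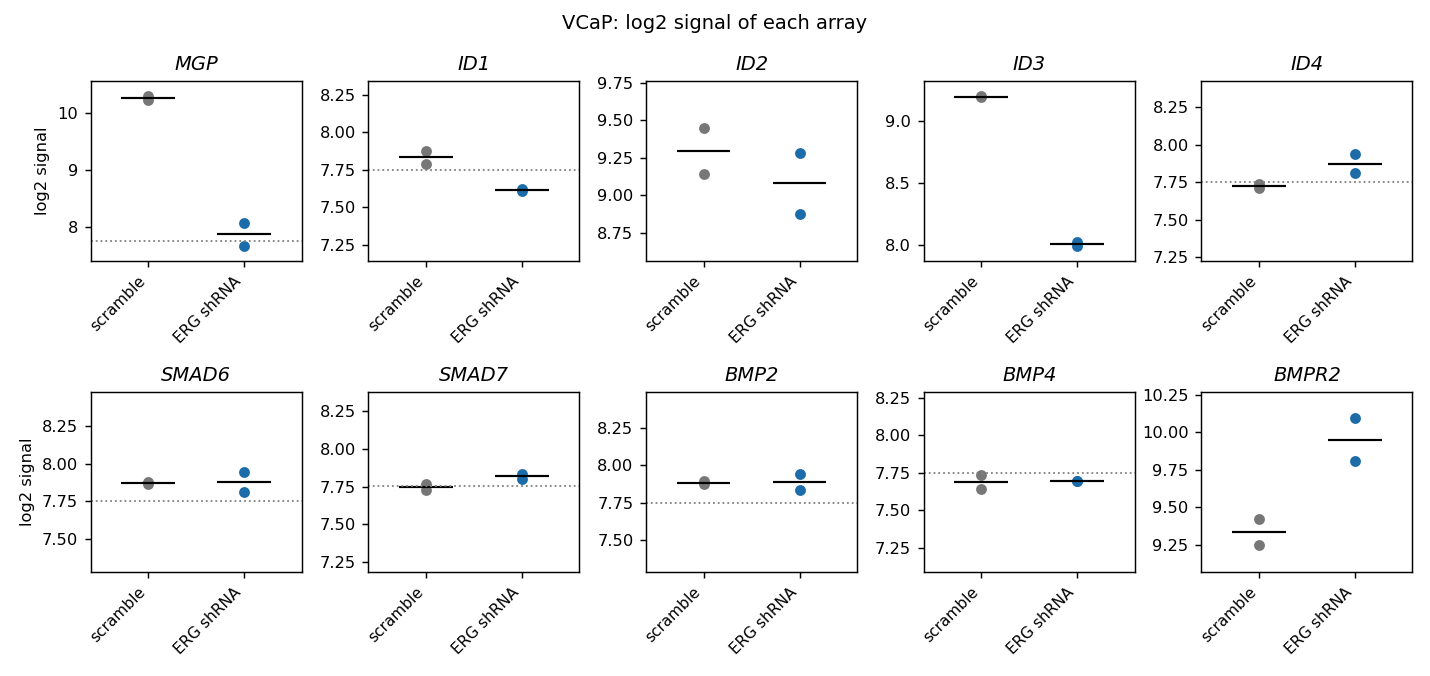
Log2 signal of each member on every VCaP array (points; grey for scramble, blue for ERG shRNA), using the brightest probe of a gene, with the group mean (bar) and, where it falls in the panel, the median of all probes (dotted line); each panel has its own vertical scale. MGP lies above 10.2 with scramble and near the median of 7.75 with ERG shRNA, ID3 lies at 9.19 and 9.20 against 7.99 and 8.02, and BMPR2 is higher with ERG shRNA.

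**Figure D3:**
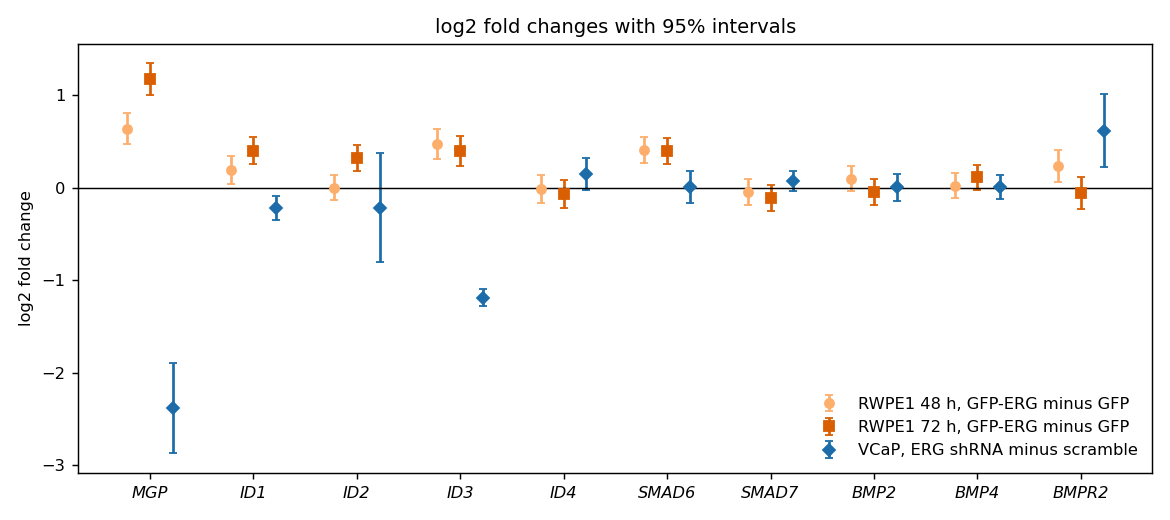
Log2 fold change of each member (vertical axis) with its 95% interval from limma, for GFP-ERG against GFP at 48 h and 72 h and for ERG shRNA against scramble; positive values mean higher with GFP-ERG or with ERG shRNA. MGP reaches 1.17 at 72 h and -2.38 in VCaP, and ID3 is the other member whose intervals lie above 0 in RWPE1 at both times and below -1 in VCaP.

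A gene was called where limma's p-value after Benjamini-Hochberg adjustment over all genes of the table was under 0.05. At 48 h, 3 members were called higher with GFP-ERG (MGP, ID3 and SMAD6) and 0 lower, where 8.79% of all genes were called, 4.86% higher and 3.93% lower. At 72 h, 5 were called higher (MGP, ID1, ID2, ID3 and SMAD6) and 0 lower, against 6.20% of all genes, 3.19% higher and 3.01% lower. In VCaP, 2 were called lower with ERG shRNA (MGP and ID3) and 0 higher, against 3.49% of all genes, 1.81% lower and 1.68% higher. The members were chosen on these contrasts, so these counts are not read against those shares. Arrays of the groups did not overlap for 6 members at 48 h, 9 at 72 h and 6 in VCaP, where 47.0%, 47.8% and 52.8% of all genes did not. The median member differed by 0.14 log2 units at 48 h, 0.22 at 72 h and 0.01 in VCaP, against 0.00 for all genes in each.

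Single arrays decided several of these calls. ID1 at 48 h was called without the first GFP-ERG array of that time (0.30, limma adjusted p = 0.0183) and BMPR2 without the second (0.38, limma adjusted p = 0.00463). ID2 at 72 h was no longer called without the second GFP array (limma adjusted p = 0.0552), nor ID3 at 72 h without the second GFP-ERG array (limma adjusted p = 0.0502). MGP and SMAD6 were called at both times under each alternative that measured them. In VCaP the calls of MGP and ID3 were lost when either scramble array was left out (limma adjusted p of 0.251 to 0.319) and with array number as a block (limma adjusted p = 0.0899), while MGP stayed at -2.18 or below and ID3 at -1.17 or below.

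Many short genes were lower on the ERG shRNA arrays, and MGP, ID1, ID2, ID3 and ID4 all span under 5 kb (4.99, 1.22, 2.41, 1.58 and 4.83 kb on GRCh38.p14). Among VCaP genes with a mean signal at or above the median, 892 spanned under 5 kb and had a median difference of -0.18, whereas 8506 longer genes had a median of 0.05. Of the short genes, 87 (9.75%) were as low as ID3 or lower, and of the longer genes 106 (1.25%). The lowest 5% of the short genes lay below -1.51 and the lowest 5% of the longer genes below -0.65. At or below the level of MGP there was 1 short gene, MGP itself, and 1 longer gene. The part that gene length or RNA quality plays in the MGP and ID values was not tested.

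The change between 48 h and 72 h was not among the comparisons that chose the members. It uses the same RWPE1 arrays as those comparisons, so it is not independent of that choice. In GFP cells, ID3 rose by 1.13 log2 units (SE 0.08, 2.19-fold, limma adjusted p = 1.38e-09) and ID2 by 0.27 (SE 0.07, limma adjusted p = 0.00490). BMP2 fell by 0.54 (SE 0.07, limma adjusted p = 2.49e-06), SMAD6 by 0.29 (SE 0.07, limma adjusted p = 0.00355) and SMAD7 by 0.28 (SE 0.07, limma adjusted p = 0.00337). Thus 2 members rose and 3 fell, among genes of which 23.0% were called, 11.8% higher and 11.2% lower at 72 h. Of the ID genes, targets of the pathway, ID2 and ID3 were thus higher at the later time, while ID1 and ID4 were not called. For ID3 the change with time was 1.13, beside differences of 0.47 and 0.40 with GFP-ERG, and the 2 GFP arrays at 72 h lay above both GFP-ERG arrays at 48 h.

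GFP-ERG cells moved the same way for these 5 genes. ID3 rose by 1.06 (SE 0.08, limma adjusted p = 2.77e-09) and ID2 by 0.59 (SE 0.07, limma adjusted p = 9.67e-07). BMP2 fell by 0.69 (SE 0.07, limma adjusted p = 9.05e-08), SMAD7 by 0.35 (SE 0.07, limma adjusted p = 0.000379) and SMAD6 by 0.30 (SE 0.07, limma adjusted p = 0.00209). MGP rose as well, by 0.35 (SE 0.08, limma adjusted p = 0.00261), whereas with GFP its difference was -0.18 (limma adjusted p = 0.120). As MGP was chosen on its GFP-ERG values at both times, this rise is given as a description. In all, 3 members rose and 3 fell, against 25.8% of genes called, 13.1% higher and 12.6% lower. Groups of arrays did not overlap for 9 members between times with GFP and 7 with GFP-ERG, where 58.0% and 57.5% of all genes did not.

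The rise of MGP between times in GFP-ERG cells depended on its brightest array: without the first GFP-ERG array at 72 h it was 0.20 (limma adjusted p = 0.120). With GFP, the call of ID2 was lost without the first array at 48 h (0.21, limma adjusted p = 0.0951) and that of SMAD7 without the first array at 72 h (-0.20, limma adjusted p = 0.0837). ID1, at -0.19 with GFP (limma adjusted p = 0.0661), was called lower at 72 h in 3 of 14 alternatives. Scan or extraction batches were not given in the sources used here, so time and any such batch cannot be told apart.

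**Figure D4:**
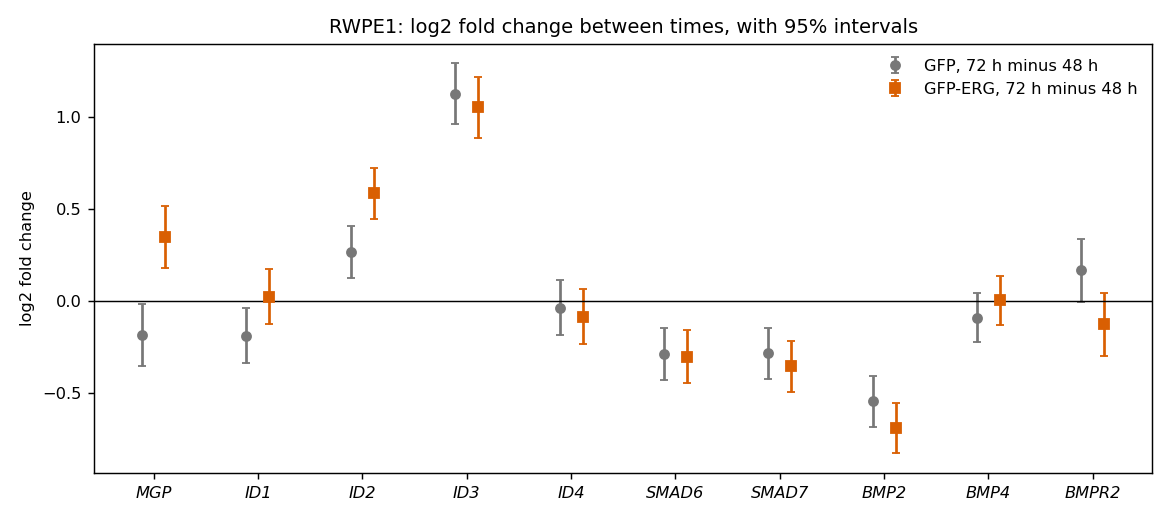
Log2 fold change of each member between 72 h and 48 h in RWPE1 (vertical axis), with 95% intervals from limma, for GFP (grey circles) and GFP-ERG (orange squares). ID3 and ID2 lie above 0 and BMP2, SMAD6 and SMAD7 below 0 in both, and MGP is at 0.35 with GFP-ERG and -0.18 with GFP.

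How far the effect of GFP-ERG differed between 72 h and 48 h was computed from the contrasts on which the members were chosen. It was called for 1 member, MGP, whose effect was larger at 72 h by 0.53 log2 units (SE 0.12, limma adjusted p = 0.0402). Of all genes, 0.476% were called in this test, 0.205% higher and 0.271% lower. ID2 came next at 0.32 (limma adjusted p = 0.193), with a 95% interval of 0.12 to 0.52, and BMPR2 was at -0.29 (limma adjusted p = 0.394). For ID3 and SMAD6 the effects at both times differed by -0.07 (95% interval -0.31 to 0.16) and -0.02 (95% interval -0.22 to 0.19). The MGP call held in 6 of 13 alternatives, with values from 0.38 to 0.69 and limma adjusted p from 0.00393 to 0.258.

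The rest of the pathway was read from a list of 54 further genes, of which 49 were measured in RWPE1 and 50 in VCaP. The remaining genes of the list were not analysed here. At 48 h, 4 of 49 were higher with GFP-ERG, 5 lower and 40 not called, and the list's median was 0.00, as for all genes. At 72 h, 3 were higher, 3 lower and 43 not called, with a median of -0.02. Called genes made up 18.4% of the measured list at 48 h and 12.2% at 72 h. Of all genes, 8.79% and 6.20% were called at those times. The list was drawn up with earlier results of these data known, so no more is read from these shares.

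Among the signal transducers, SMAD9, a receptor-regulated SMAD of the BMP branch, rose with GFP-ERG. It read 6.84 and 6.68 with GFP and 7.30 and 7.11 with GFP-ERG at 48 h (0.45, SE 0.07, limma adjusted p = 0.000250), and 6.64 and 6.65 against 7.09 and 7.02 at 72 h (0.41, SE 0.07, limma adjusted p = 0.000769). The groups did not overlap, though most of these signals lay below the median. The other 5 SMADs and SMURFs measured (SMAD1, SMAD5, SMAD4, SMURF1 and SMURF2) were not called at either time.

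Of 11 ligands, BMP6 alone was called, higher with GFP-ERG at 48 h by 0.30 (SE 0.07, limma adjusted p = 0.00791) and not called at 72 h. Of 10 receptors and co-receptors, NEO1, a receptor for repulsive guidance molecules, was lower by 0.25 at 48 h (limma adjusted p = 0.0490) and by 0.27 at 72 h (limma adjusted p = 0.0441). Of 13 antagonists, 3 fell at 48 h and 1 at 72 h. Over all genes, 4.86% were called higher and 3.93% lower at 48 h, and 3.19% and 3.01% at 72 h. FST, follistatin, which binds activin and some BMPs, fell by 0.23 (limma adjusted p = 0.0345) at 48 h and by 0.28 (limma adjusted p = 0.0125) at 72 h. FSTL3, a related binding protein, fell by 0.29 (limma adjusted p = 0.00497) and BAMBI, a decoy receptor, by 0.34 (limma adjusted p = 0.00399), both at 48 h. Neither passed at 72 h, and the difference between the times was not called for either gene.

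Of 9 further targets, ATOH8 and HEY1 rose and RUNX2 fell at both times. ATOH8, a basic helix-loop-helix factor, rose by 0.41 (SE 0.07, limma adjusted p = 0.000180) at 48 h and 0.26 (SE 0.07, limma adjusted p = 0.0188) at 72 h. RUNX2, the transcription factor that drives bone formation, fell by 0.33 (limma adjusted p = 0.00274) and by 0.38 (limma adjusted p = 0.000835). HEY1, a repressor that responds to Notch as well as to BMP9, read 7.67 and 7.72 with GFP and 8.07 and 8.06 with GFP-ERG at 48 h (0.37, SE 0.06, limma adjusted p = 0.000422). At 72 h it read 8.60 and 8.54 against 9.96 and 9.95, a rise of 1.39 (SE 0.06, 2.61-fold, limma adjusted p = 2.54e-12). Of these 9 targets, 2 were thus called higher, 1 lower and 6 not at all at each time. Over all genes 8.79% were called at 48 h and 6.20% at 72 h. The ID genes, also targets, are members and are not counted here.

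Several of these calls rested on single arrays. Without the first or the second GFP array at 48 h, 5 of the 9 genes were called at that time. Without the second GFP array or the second GFP-ERG array at 72 h, 3 of the 6 were called. HEY1 and SMAD9 were called at both times in every alternative that measured them, and RUNX2 at 72 h in all 14, while NEO1 was called in 6 of 14 at 48 h and in 8 of 14 at 72 h. BMP6, FSTL3, BAMBI and RUNX2 at 48 h, FST at both times and ATOH8 at 72 h each lost their call without at least 1 array.

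In VCaP 1 of 50 pathway genes was called, where 3.49% of all genes were: NBL1, an antagonist that binds BMPs, was higher with ERG shRNA, at 9.03 and 9.06 with scramble and 9.40 and 9.36 with ERG shRNA (0.33, SE 0.03, limma adjusted p = 0.0479). The NBL1 call held in 2 of 10 alternatives, and with its probes averaged the difference was 0.045 (limma adjusted p = 0.754). This count was 0 with array number as a block, 5 with eBayes set to trend and robust (NBL1 not among them, limma adjusted p = 0.210), and 0 to 2 without single arrays, and the list's median was 0.00. SMAD4, the partner shared by all receptor-regulated SMADs, stood highest at 1.03 (SE 0.18) and did not pass (limma adjusted p = 0.0912). HEY1 was at -0.07 (SE 0.04, limma adjusted p = 0.487) and SMAD9 at 0.12 (SE 0.06, limma adjusted p = 0.441), so neither passed in VCaP.

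**Figure D5:**
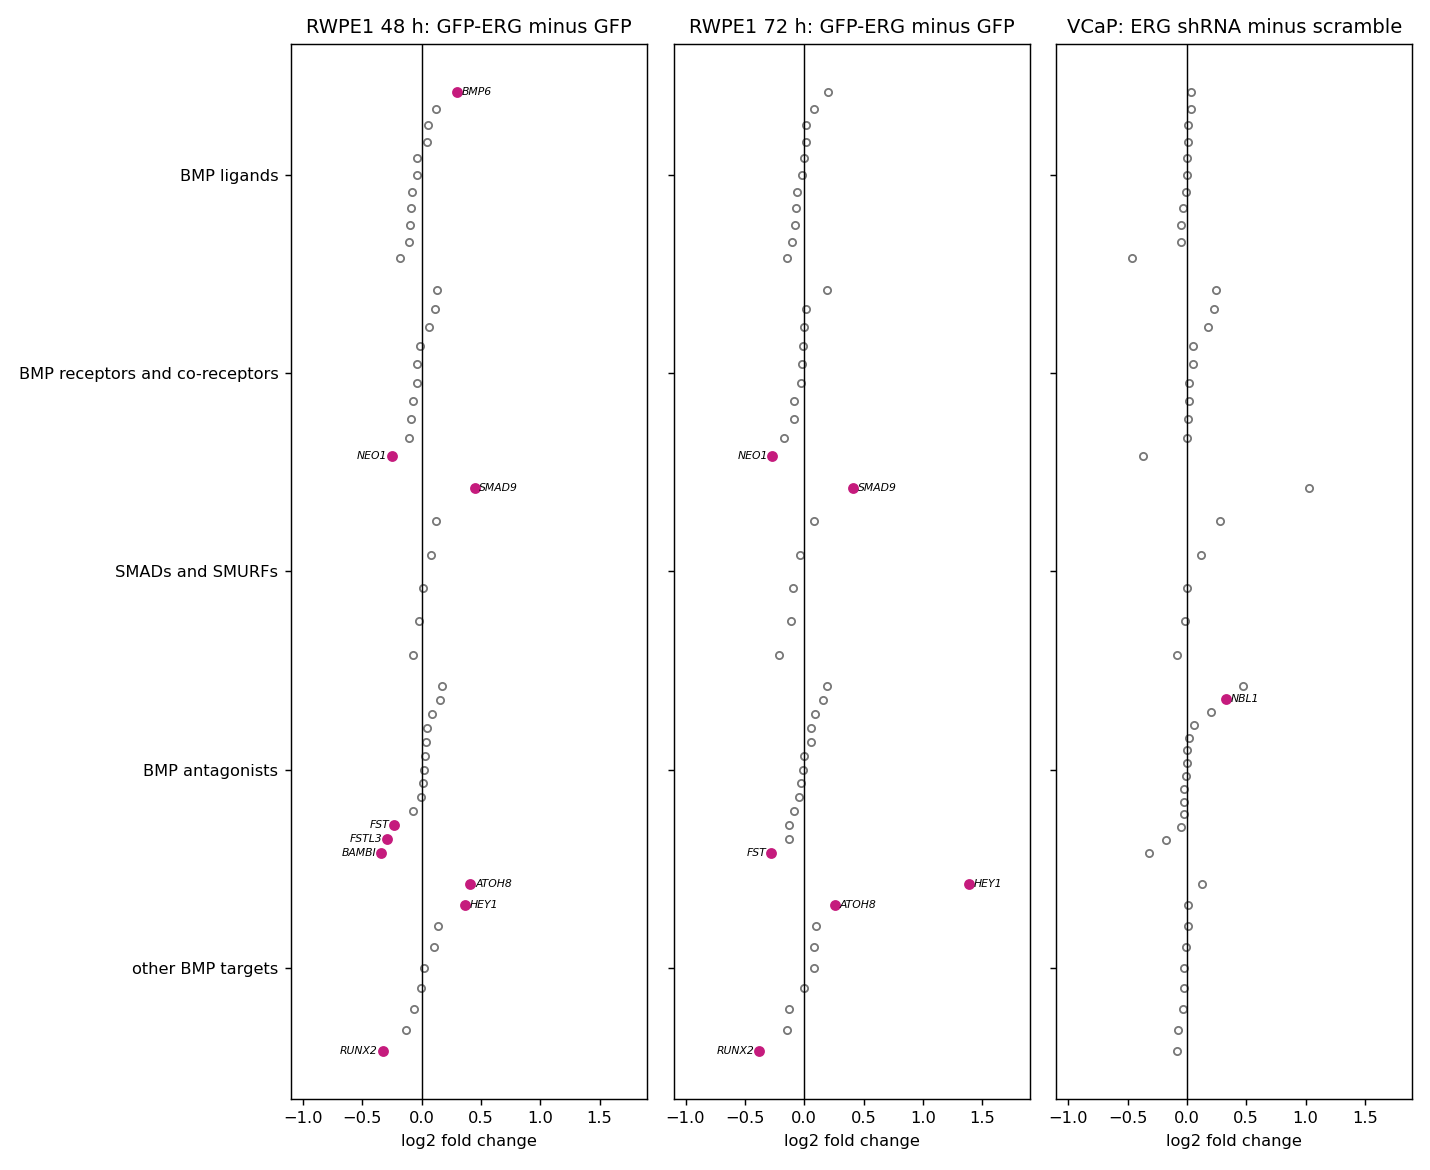
Log2 fold change (horizontal axis) of each further BMP pathway gene, grouped by role, in the 3 comparisons; filled points with a name were called by limma (adjusted p under 0.05) and open points were not. HEY1 at 72 h (1.39) and SMAD4 in VCaP (1.03, not called) lie farthest from 0 of the points drawn, and each other point lies within 0.47 of 0.

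Between times, the wider list moved in both directions, with 7 rises and 7 falls among 49 genes with GFP and 6 rises and 9 falls with GFP-ERG. Over all genes 23.0% and 25.8% were called, so the list's 28.6% and 30.6% lay near the background. BMP6 rose by 0.72 with GFP and 0.62 with GFP-ERG, and RUNX2 rose by 0.77 and 0.72. HEY1 rose by 0.87 with GFP and 1.89 with GFP-ERG. Of 13 antagonists, 9 were not called with GFP and 8 with GFP-ERG. GREM1, gremlin, fell by 0.59 and by 0.65, FST by 0.42 and by 0.47 and FSTL3 by 0.55 and by 0.39, while BAMBI, itself induced by BMP signals, rose by 0.50 and by 0.71. The co-receptor ENG, endoglin, fell by 0.61 and by 0.38.

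A list of 11 genes for carboxylated (Gla) proteins and mineralisation was measured in full in both lines. It included genes of the vitamin K cycle, which MGP needs for carboxylation. VKORC1, which recycles vitamin K, was the 1 gene of the list called in VCaP, where 3.49% of all genes were called. It read 11.32 and 11.49 with scramble and 9.86 and 9.56 with ERG shRNA (-1.70, SE 0.13, 3.25-fold lower, limma adjusted p = 0.0342). VKORC1 spans 3.94 kb, so it too is among the short genes that were often lower there. Its call was lost with the block and without either scramble array, as for MGP. In RWPE1 VKORC1 rose by 0.26 (limma adjusted p = 0.0103) at 48 h, a call lost without either GFP array or the first GFP-ERG array of that time, and was at 0.08 at 72 h. PROS1, protein S, another carboxylated protein, rose by 0.45 (limma adjusted p = 0.000367) at 48 h and by 0.41 at 72 h. VKORC1L1, a relative of VKORC1, fell by 0.26 at 48 h. Of the 11 genes, 2 were called higher and 1 lower at 48 h, where 8.79% of all genes were called. At 72 h 1 was called higher and 0 lower, where 6.20% of all genes were called.

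ID partners and the neighbouring TGF-beta branch were read from further lists. Of the 3 E proteins, the usual partners that ID proteins bind, TCF4 rose by 0.25 (limma adjusted p = 0.0163) with GFP-ERG at 48 h, where 8.79% of all genes were called. None of the 3 was called at 72 h or in VCaP, where 6.20% and 3.49% of all genes were. Of 13 genes of the TGF-beta branch, 3 rose at 48 h: SKIL, a repressor of SMAD signalling, by 0.50, SMAD3 by 0.27 and TGFB3 by 0.22, where 8.79% of all genes were called and 4.86% higher. At 72 h SMAD3 rose by 0.22 and TGFBR3 fell by 0.34, where 6.20% of all genes were called, and in VCaP 0 of 13 were called, where 3.49% were.

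MGP, ID1 and SMAD6 are also expressed by endothelial and connective tissue cells, whose markers were read beside them. Each marker was set against the median by its mean over all arrays of the line, GFP-ERG or ERG shRNA arrays included. Of 7 endothelial markers, TEK (mean 7.40) and CLDN5 (mean 7.51) lay above the RWPE1 median of 7.24 in this way. Both were higher with GFP-ERG, TEK by 0.78 and 0.68 and CLDN5 by 0.39 and 0.25 at 48 h and 72 h. The mean therefore does not place TEK above the median with GFP alone. The 5 others (PECAM1, CDH5, KDR, VWF and EMCN) lay below the median. The mean signal over the 7 was 6.87 to 6.91 with GFP and 7.08 to 7.09 with GFP-ERG at 48 h, and 6.71 against 6.81 to 6.88 at 72 h. Of 8 fibroblast markers, 3 lay above the median (COL1A1, DCN and FAP), the mean was 7.01 to 7.03 against 7.03 to 7.04 at 48 h and 7.13 to 7.18 against 7.03 to 7.06 at 72 h, and DCN was lower with GFP-ERG at 72 h by -0.36. In VCaP the fibroblast mean was 7.62 to 7.63 in both groups and the endothelial mean 7.70 to 7.74 with scramble and 7.66 with ERG shRNA, PECAM1 and VWF being above the median. Of 5 leukocyte markers, CD14 (mean 7.53) and CD68 (mean 11.74) lay above the median in RWPE1 on the mean of all 8 arrays. CD14 was higher with GFP-ERG by 1.00 at 48 h and 1.06 at 72 h, so its mean does not place it above the median with GFP alone. The part of such cells in the member values was not tested, and in bulk RNA fewer cells of a type and less RNA per cell cannot be told apart.

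Genes whose pattern was most like that of a member were ranked by the root mean square difference of log2 signals, each gene centred on its own mean, among genes at or above the table's median. For ID1 over 8 RWPE1 arrays and 8991 genes they were TCN2, CDC42EP4, WDR6, TEAD2 and TAGLN2, at 0.0314 to 0.0582 against a median of 0.209. For ID3 they were THBS2, PLD1, ADA, SMAD3 and NOTCH1, at 0.129 to 0.159 against 0.594. For MGP over 4 VCaP arrays and 9399 genes they were ARHGDIB, SFT2D1, RPS21, MT1X and MT2A, at 0.121 to 0.186 against 1.22. The measure favours genes that vary by as much as the member, and with so few arrays it describes these arrays only.

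MGP and ID3 were the members called higher with GFP-ERG at 48 h and 72 h and lower with ERG shRNA. Over 16251 genes measured in both lines, 17 genes were of that kind, FZD4 among them, which was 5.70% of the 298 genes higher with GFP-ERG at both times and 5.65% of the 301 genes lower with ERG shRNA. The opposite pattern, lower with GFP-ERG and higher with ERG shRNA, was found for 9 genes. A further 1 gene was higher in both and 3 were lower in both, and 0 members were among these 3 sets. With the sign of the VCaP comparison turned, since its brightest ERG probe goes against the labels, the 17 and 9 genes would be those that oppose RWPE1, MGP and ID3 included, and the 1 and 3 those that go with it. The comparisons at 48 h and 72 h use separate arrays but share 1 estimate of the spread, and no array serves both lines. MGP and ID3 were chosen as members on these 3 comparisons, so their place among the 17 genes is a description and not support.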

How the data were processed

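Biotin-labelled cRNA made from total RNA, per the labels' protocols, was measured on 8 arrays for RWPE1 and on 4 for VCaP, which are Illumina bead arrays of different designs with 1 colour. The deposited log2 values were used as the authors gave them. That they are log2 was inferred from their range, 5.95 to 15.1 in RWPE1 and 7.44 to 15.4 in VCaP. Software, background correction and normalization were not given in the sources used here. Sorted values of the arrays of a table differed by at most 0.0391 from their mean, so no further normalization was applied, and tests were made within a table. No detection p-values were used. The number of arrays, 2 per group, limits precision.

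Probes were named from the platform annotation, updated through the RefSeq gene table of GRCh38.p14, which changed 0 symbols. Of 20589 RWPE1 probes 18332 had 1 symbol, 0 several and 2257 none; of 24525 VCaP probes 21833 had 1, 0 several and 2692 none. The brightest probe stood for a gene. There were 0 columns of samples outside the series.

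Group means were compared in limma (version 3.58.1, run under R 4.3.3) with lmFit and eBayes, 2-sided, over all genes of a table, with Benjamini-Hochberg adjustment and a threshold of 0.05. Python 3.11.15, pandas 2.3.3 and matplotlib 3.10.9 prepared tables and plots. The fits were tested on simulated data: of changes of 0.5 log2 units 86% were recovered at 48 h, 88% at 72 h (16591 genes) and 31% in VCaP (16922 genes). For changes of 1 log2 unit, 100% were recovered at 48 h and at 72 h but 52% in VCaP, so many real changes there can go uncalled. False calls numbered 10 at 48 h, 5 at 72 h and 4 in VCaP. Deviations of same-numbered arrays correlated at -0.0571 to 0.0776 in RWPE1 and 0.190 in VCaP, which has a single pair of groups, so the numbers were not taken to pair arrays. Alternatives were an array-number block, trend and robust eBayes, dim genes left out, the mean of a gene's probes, repeated quantile normalization, each array left out and, added after seeing the data, a fit of all probes.

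Members and lists were chosen with earlier results of these data known. Named were all members and ERG by every probe, up to 8 called genes per list and comparison by size, and the 5 genes most like ID1, ID3 and MGP. SMAD4, HEY1 and SMAD9 in VCaP and the overlap gene FZD4 fall outside that rule and were named after their values were seen.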

Additional observations from a re-analysis of the deposited data

Results flagged for a closer look

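For MGP, the effect of GFP-ERG in RWPE1 was 0.53 log2 units larger at 72 h than at 48 h (SE 0.12, limma adjusted p = 0.0402). The value comes from the contrasts on which MGP was chosen, and its call held in 6 of 13 alternatives, at 0.38 to 0.69 with limma adjusted p up to 0.258. All GFP-ERG arrays lay above all GFP arrays at both times. HEY1 drew attention for the same reason, with an effect 1.02 log2 units larger at 72 h (SE 0.09, limma adjusted p = 1.68e-06). Its call held in all 14 alternatives, at 0.98 to 1.05, and its GFP-ERG arrays lay above its GFP arrays at both times.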

How the results depend on the processing

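Of 783 member values under the alternatives, 731 kept their direction and side of the threshold, 18 lost a call, 8 gained one, 0 reversed a call and 26 uncalled ones changed sign, at values of -0.08 to 0.08. Among tests between times, such sign changes came from leaving out single arrays: with GFP, ID4 ranged from -0.13 to 0.066, and with GFP-ERG, ID1 from -0.081 to 0.13, BMP4 from -0.018 to 0.029 and BMPR2 from -0.27 to 0.019. For the effect of GFP-ERG at 72 h less that at 48 h, ID3 ranged from -0.20 to 0.048, ID4 from -0.15 to 0.050, SMAD6 from -0.10 to 0.074 and SMAD7 from -0.15 to 0.0074. With array number as a replicate block, the RWPE1 counts were the same (3 members at 48 h, 5 at 72 h, and 9 and 6 wider pathway genes), whereas VCaP had 0 of 2 members and 0 of 1 wider pathway gene, since no VCaP gene passed (smallest limma adjusted p = 0.0899). Without single arrays, wider pathway genes numbered 5 to 9 at 48 h, 3 to 6 at 72 h and 0 to 2 in VCaP. Members called in VCaP numbered 0 to 3, and those whose effect differed between times 0 to 1. That last count was 0 with dim genes left out, which removes MGP itself, and 0 when a gene's probes were averaged, where the value of MGP is the same and the adjusted p is 0.0635. In VCaP, wider pathway genes numbered 5 with trend and robust eBayes and 0 when a gene's probes were averaged; the cause was not tested. Leaving out 1 array of a VCaP group leaves a lone array that is assumed to vary like the other group. Signals near the bottom of the scale (ID4 and BMP4 in both lines, MGP with GFP, and ID1, SMAD6, SMAD7 and BMP2 in VCaP) limit what fold changes can show.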
